A study of Rattus norvegicus with 8 samples.

Results

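The genes described here make ribosomes. Of 36 genes named as members of the nucleolus and ribosome biogenesis group, 35 were measured, among 14217 genes with a named probe set on the array. A member was read from its probe set with a single gene symbol in the platform annotation, and where a gene had several, from the one with the highest mean over all arrays. The measured members comprise 7 genes of RNA polymerase I and its initiation factors and 28 processing and assembly factors. Npm1 (nucleophosmin) was not read, because its 3 probe sets carry more than 1 symbol.

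RNA came from 8 isolated hearts of male Wistar rats, each on its own Affymetrix array. Each heart was perfused for 2 h in a Langendorff apparatus, which feeds the coronary vessels of an excised heart through the aorta, and the perfusate was not recirculated. It held no drug for 4 control hearts and 2 µM doxorubicin for the other 4. Hearts of a group are labelled as biological replicates, and the labels give no age and no genotype. An excised heart is cut off from blood supply, nerves and circulating hormones, and both groups share this.

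Ribosome assembly starts in the nucleolus. RNA polymerase I copies the ribosomal DNA into a long precursor RNA, small nucleolar ribonucleoproteins (snoRNPs) direct its chemical modification, and a large set of assembly factors cuts and folds it into the small (40S) and large (60S) subunits. In heart muscle the pathway is known for its rise in hypertrophic growth, and the transcription factor MYC is a textbook activator of its genes. Doxorubicin is an anthracycline that intercalates into DNA and poisons topoisomerase II, and drugs of this class are known to disturb the nucleolus. The array reads the mRNAs of the factors, not the ribosomal precursor RNA or the activity of the enzymes.

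MYC binds, with its partner MAX, the palindromic E-box CACGTG, which was looked for in the members and is shown here because Myc itself fell in these hearts. RefSeq promoter windows (GRCr8 build, 250 bases before to 50 bases after the transcript start) were matched for 32 of the 35 measured members. The letters CACGTG, which read the same on both strands, were found in 8 of the 32 windows (25%). Over the windows of all measured genes the share was 8.65% (1141 of 13192), and over all 33469 windows it was 6.42%. All 8 windows belong to processing factors, and 0 of the 7 polymerase I windows held the letters. Each stretch below is written 5′ to 3′ on the strand of the gene, with the E-box in capitals.
Fbl (chr1:92597416-92597445, + strand): ggcgcttttttcCACGTGtgaaagcctgag
Dkc1 (chrX:157751455-157751484, + strand): agcgtcccggcgCACGTGcgggccccaccc
Gnl3 (chr16:6219790-6219819, - strand): agttccagttcgCACGTGgcgcccgagacg
Pes1 (chr14:83074284-83074313, + strand): ccctaagcggggCACGTGcggtaggaagta
Rrp1 (chr20:10260552-10260581, + strand): tggcgtgacgcaCACGTGtcgtcactcgag
Tsr1 (chr10:60258798-60258827, + strand): gtttactcggtgCACGTGggcagttagaat
Bysl (chr9:20880361-20880390, + strand): tagccggcttcaCACGTGtaaactttgtgg
Nop2 (chr4:159618992-159619015, + strand): cttccccaagtgCACGTGgagcgg
The box began 184, 50, 25 and 16 bases before the transcript start in Dkc1, Pes1, Gnl3 and Rrp1. In Fbl, Tsr1, Bysl and Nop2 it lay within the first transcribed bases. A match is a description of the letters and not of a bound site.

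None of the 35 members changed in the doxorubicin hearts at a limma adjusted p under 0.05, in either direction. Over all genes 2.97% were called (422 of 14217), 0.802% of all genes upward and 2.17% downward. Most differences were small and positive. The difference of a gene is its mean log2 level in doxorubicin hearts minus that in control hearts, and the 35 values ran from -0.19 (Nop58) to 0.54 (Rrs1) with a median of 0.10, beside a median of 0.01 over all genes. A positive difference was seen for 27 of 35 members (77.1%), against 51.9% of all genes.

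The precision of 4 hearts against 4 bounds what each member could have done. For 32 of the 35 members the 95% interval of the limma difference lay within a 1.5-fold change in either direction (0.58 log2), a share of 91.4% against 91.5% of all genes. The exceptions were Rrs1, Nip7 and Fbl, whose intervals reached up to 0.90, 0.75 and 0.60 log2. No member's interval reached down to a 1.5-fold decrease in this fit, which had no covariate. None of the members was dim, meaning in the lowest quartile of probe sets (a mean under 4.16 log2).

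**Figure D1:**
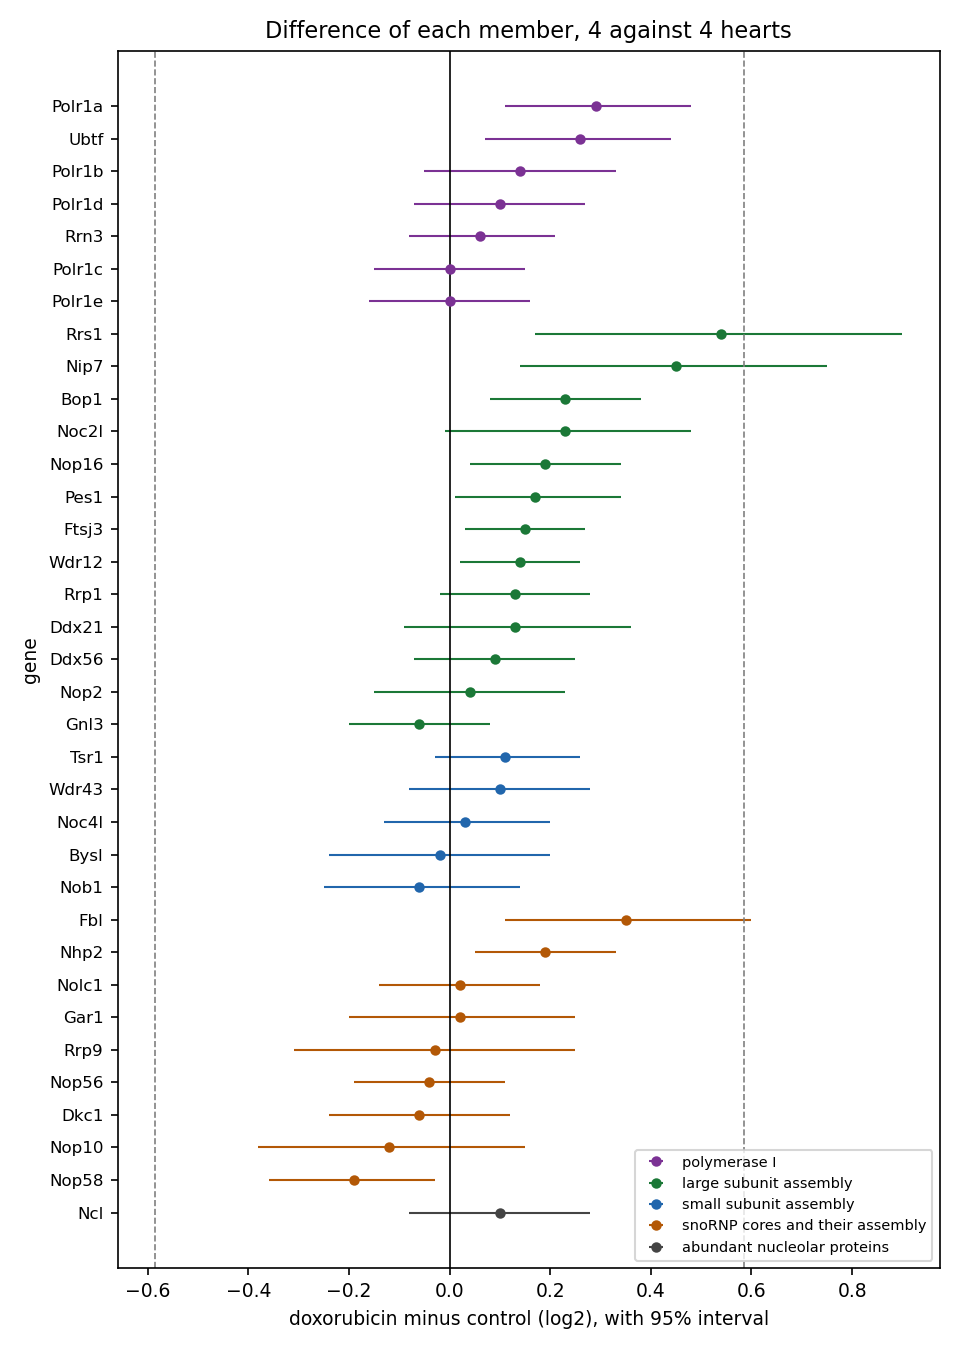
Difference between doxorubicin and control hearts on the log2 scale for each of the 35 measured members, with the 95% interval of the limma fit (4 hearts against 4), coloured by role; dashed lines mark 1.5-fold. The points lie between -0.19 and 0.54, and the intervals of Rrs1, Nip7 and Fbl alone cross the upper dashed line.

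At an unadjusted p under 0.05, 11 members were higher (31.4%) and 1 was lower (2.86%), while the shares over all genes were 9.67% and 7.07%. In 7 members (20.0%) all 4 doxorubicin hearts lay above all 4 control hearts, and in 0 did they all lie below. Over all genes the groups did not overlap in the higher direction for 5.75% and in the lower direction for 4.69%. No member was dim, and among the 12201 genes that were not dim the shares were somewhat larger. Of these, 54.0% were positive, 11.1% were higher and 7.92% lower unadjusted. Their groups did not overlap for 6.52% in the higher and 5.14% in the lower direction. These counts describe the members beside all genes and are not a test of the list. The level of hybridization controls, 18 probe sets that read transcripts added to the labelled sample, also differed between the groups, at 10.21 to 10.57 log2 in control and 9.97 to 10.13 in doxorubicin arrays (exact two-sided permutation p = 0.0286, the smallest that 70 splits can give). With that level as a covariate, 1 member, Ubtf (0.43, limma adjusted p = 0.456), was higher at an unadjusted p under 0.05 and 0 were lower, against 3.20% and 4.06% of all genes. The level did not overlap between the groups, so the fit with it was less precise. In that fit the intervals of 29 of the 35 members lay within 1.5-fold, in place of 32. Among the wider ones was that of Nop10 (-0.21, SE 0.21). The part of the hybridization level in the result was not tested.

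The small differences were even across doxorubicin hearts and less so across control hearts. The median member, expressed against its own mean over the 8 hearts, lay 0.04 to 0.06 log2 above that mean in each doxorubicin heart. In control hearts 1 to 4 it lay at -0.03, -0.01, -0.09 and -0.06. The median of all genes stayed between -0.01 and 0.01 in every heart, and in control 2 it equalled that of the members, at -0.01. The highest of the 8 values fell in a doxorubicin heart for 26 of 35 members (74.3%, against 46.1% of all genes). The lowest fell in a control heart for 26 members (74.3%, against 60.4%). Control 3 held the lowest value for 9 members (25.7%, against 12.8% of all genes). Control 1 did for 8 (22.9%), near its share of 19.0% of all genes. Within a group, hearts varied by a median SD of 0.10 log2 in control and 0.12 in doxorubicin, taken over the single members.

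**Figure D2:**
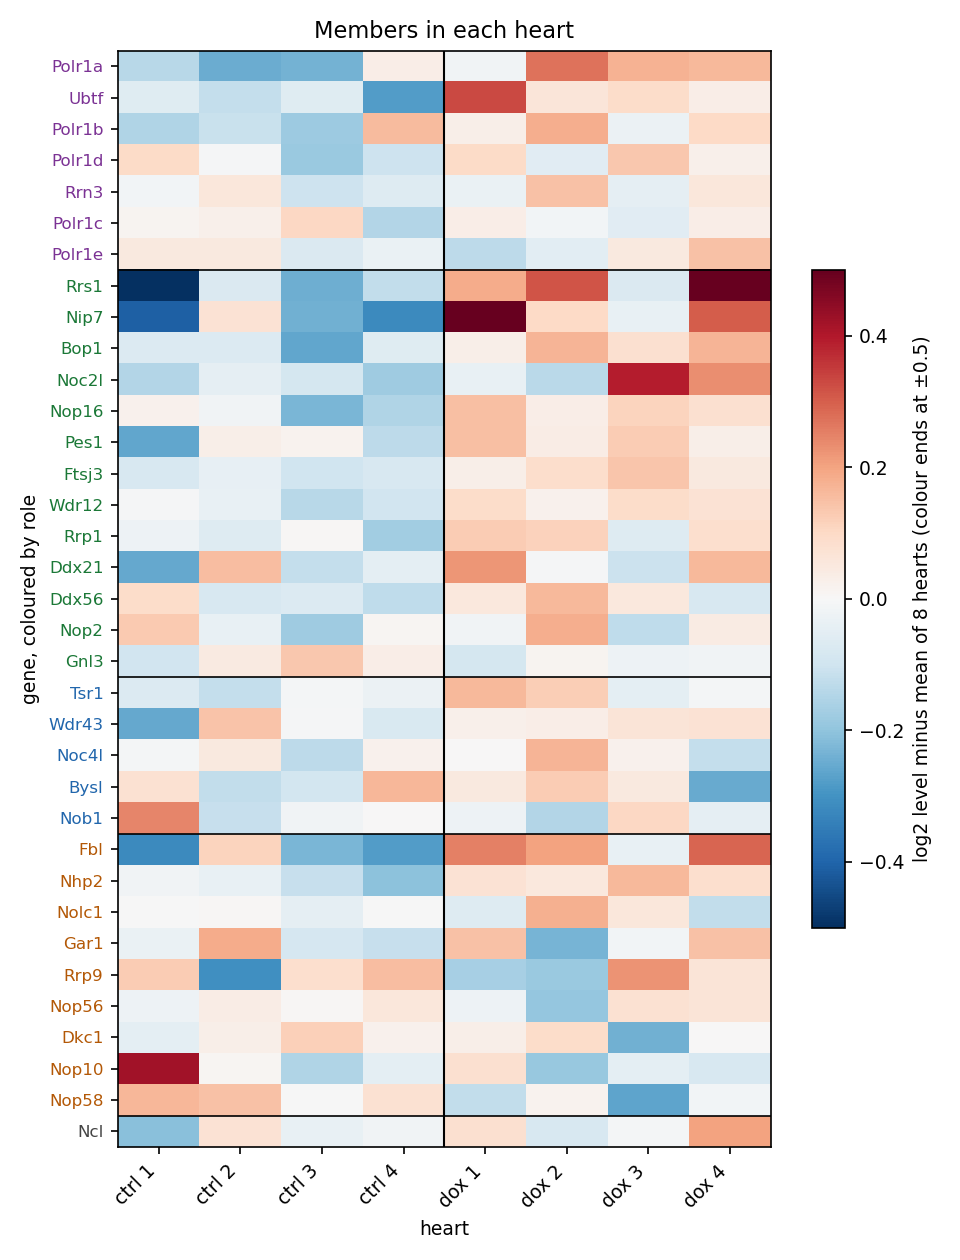
Level of each member in each heart as the log2 difference from its mean over the 8 hearts, with control hearts on the left of the vertical line and doxorubicin hearts on the right; genes are grouped and coloured by role and colour ends at ±0.5. The large subunit block is mostly blue in control and red in doxorubicin hearts, while the snoRNP block shows both directions.

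Among the members, RNA polymerase I was read through 5 subunits and 2 initiation factors. None of the 7 passed the test, their differences ran from 0.00 to 0.29 with a median of 0.10, and every one of the 7 intervals lay within 1.5-fold. The median was 0.05 without control 3, the heart with the lowest polymerase I levels, and 0.01 with the hybridization covariate. Polr1a encodes the largest subunit and, with Polr1b, forms the catalytic centre. Polr1a stood at 7.33, 7.22, 7.23 and 7.50 log2 in control hearts 1 to 4 and at 7.45, 7.74, 7.64 and 7.63 in doxorubicin hearts 1 to 4. Control 4 lay above doxorubicin 1, so the groups overlapped. The difference was 0.29 (SE 0.08, 1.23-fold), the smallest p of all members, with a limma adjusted p of 0.129. With the hybridization level as a covariate it was 0.14.

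Polr1b, the second-largest subunit, read 5.63, 5.67, 5.60 and 5.94 log2 in control and 5.81, 5.96, 5.75 and 5.88 in doxorubicin hearts. Control 4 was again the high control heart, and the difference of 0.14 (SE 0.09, limma adjusted p = 0.547) was within the spread. Polr1c and Polr1d encode the subunits that RNA polymerase I shares with polymerase III. Polr1c read 7.65, 7.66, 7.74 and 7.49 log2 in control and 7.67, 7.62, 7.58 and 7.67 in doxorubicin hearts, a difference of 0.00 (95% interval -0.15 to 0.15). Polr1d read 8.64, 8.54, 8.36 and 8.44 log2 in control and 8.64, 8.49, 8.68 and 8.57 in doxorubicin hearts, a difference of 0.10 (SE 0.07), and its second probe set stood at 0.01. The doxorubicin values of Polr1c lay within the range of the control values, and those of Polr1d overlapped it. Polr1e, the counterpart of the yeast A49 subunit that helps the enzyme initiate, read 6.19, 6.19, 6.07 and 6.11 log2 in control and 6.01, 6.09, 6.19 and 6.29 in doxorubicin hearts. Doxorubicin hearts were both the lowest and the highest of the 8, and the difference was 0.00 (95% interval -0.16 to 0.16).

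The initiation factors gave differing values. Ubtf (UBF) is an HMG-box protein that coats active ribosomal DNA. It read 7.06, 7.0, 7.06 and 6.84 log2 in control and 7.45, 7.18, 7.21 and 7.15 in doxorubicin hearts, with no overlap. The difference was 0.26 (SE 0.08, 1.20-fold, limma adjusted p = 0.184), and doxorubicin 1 was the highest heart. The 3 other probe sets of Ubtf did not show it as clearly, at 0.14, 0.05 and -0.05, and the mean of all its probe sets stood at 0.10. Rrn3 (TIF-IA) is the growth-regulated factor that joins the polymerase to the promoter. Its values were 8.82, 8.89, 8.73 and 8.77 log2 in control and 8.80, 8.98, 8.79 and 8.89 in doxorubicin hearts, which overlapped, with a difference of 0.06 (SE 0.06, limma adjusted p = 0.765). A second Rrn3 probe set stood at 0.00.

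**Figure D3:**
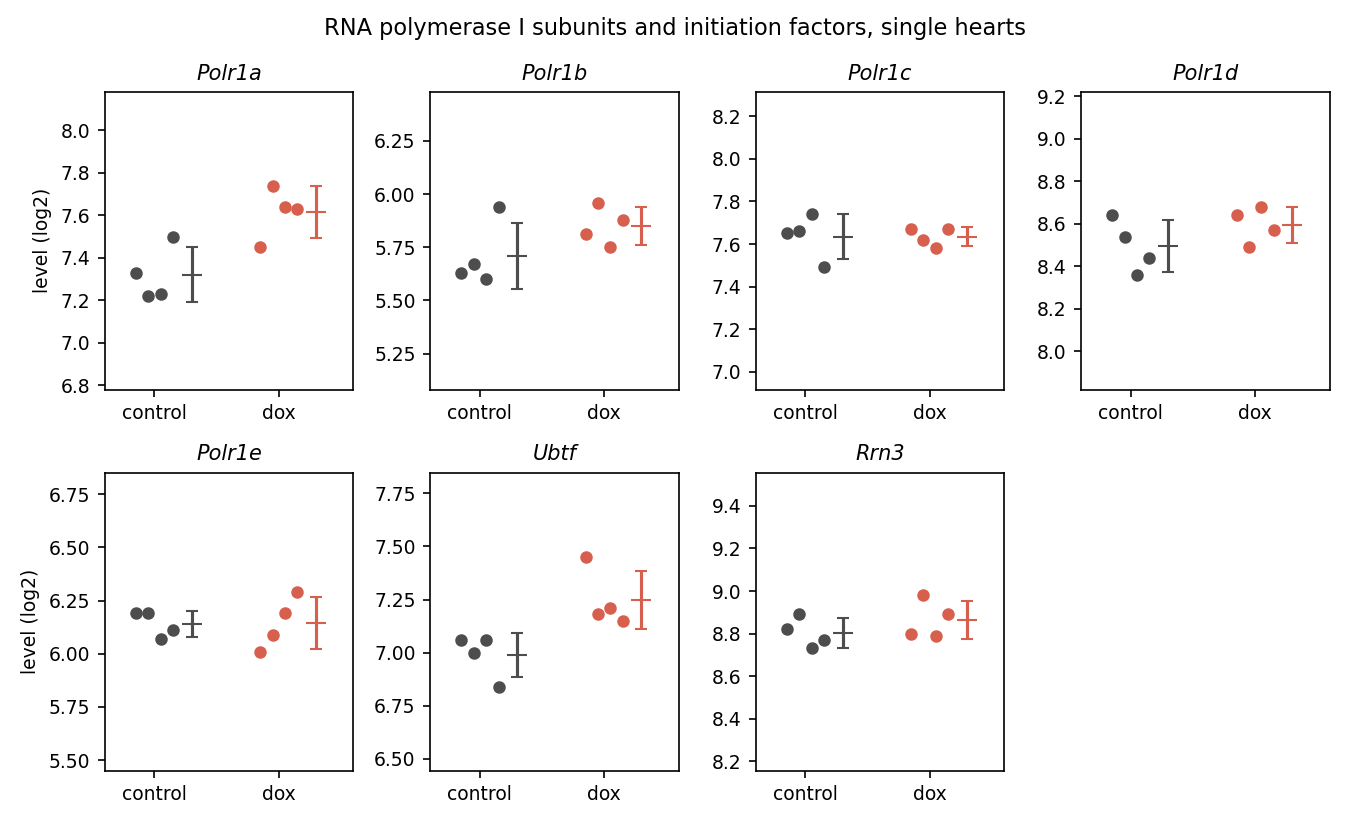
Level (log2) of the 7 polymerase I members in single hearts, with control hearts in grey and doxorubicin hearts in red, and the mean with SD (n = 4) beside each group; every panel spans 1.4 log2. Ubtf is the panel whose groups do not overlap, and Polr1c and Polr1e have the same mean in both groups within 0.01 log2.

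The 13 factors of large subunit assembly had a median difference of 0.15, and none was called. Of the 13, 12 were positive (92.3%, against 51.9% of all genes). An unadjusted p under 0.05 was reached by 7 upward and 0 downward, against 9.67% and 7.07% of all genes, and by 0 of the 13 with the hybridization covariate. That fit had larger SEs, such as 0.24 for Nip7 and 0.28 for Rrs1, and the differences moved both ways. Nip7 (0.53), Pes1 (0.28) and Rrp1 (0.24) were larger in it. Most others were smaller, among them Rrs1 (0.47), Nop16 (0.09) and Wdr12 (0.08). Pes1, Bop1 and Wdr12 form the PeBoW complex, which the maturation of the large subunit RNAs requires, and all 3 had every doxorubicin heart above every control heart, as did 5.75% of all genes. These genes were picked out as a complex after their values were seen. Bop1 read 6.46, 6.46, 6.27 and 6.47 log2 in control and 6.56, 6.70, 6.61 and 6.70 in doxorubicin hearts. The difference was 0.23 (SE 0.07, limma adjusted p = 0.135), and it was 0.18 without control 3, the lowest heart, and 0.06 with the hybridization covariate.

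Wdr12 read 7.17, 7.14, 7.04 and 7.08 log2 in control and 7.27, 7.20, 7.27 and 7.25 in doxorubicin hearts, a difference of 0.14 (SE 0.05, limma adjusted p = 0.292). Pes1, which carries the E-box shown above, read 6.50, 6.79, 6.78 and 6.63 log2 in control and 6.91, 6.80, 6.89 and 6.79 in doxorubicin hearts. Its groups were apart by less than 0.01 log2, and the difference was 0.17 (SE 0.08, limma adjusted p = 0.348).

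Rrs1 and Nip7 had the largest differences of the 35 and also the largest SD between hearts of a group, pooled over both groups. Rrs1 takes part in loading the 5S ribonucleoprotein into the growing large subunit. It read 5.22, 5.78, 5.61 and 5.73 log2 in control and 6.04, 6.17, 5.78 and 6.50 in doxorubicin hearts, where doxorubicin 3 equalled control 2 at this precision. The difference was 0.54 (SE 0.16, 1.45-fold, limma adjusted p = 0.155). Its partner in this step, Rpf2, stood at 0.16 (SE 0.10, limma adjusted p = 0.573). Nip7, a late factor of large subunit processing, read 5.55, 6.03, 5.72 and 5.64 log2 in control and 6.49, 6.06, 5.92 and 6.26 in doxorubicin hearts. Control 2 lay above doxorubicin 3, and the difference was 0.45 (SE 0.14, 1.36-fold, limma adjusted p = 0.157).

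Ftsj3 and Nop16 did not overlap between groups, and Ftsj3 varied little within them. Ftsj3, an RNA methyltransferase of the nucleolus, read 6.39, 6.43, 6.37 and 6.39 log2 in control and 6.50, 6.56, 6.61 and 6.52 in doxorubicin hearts, with a difference of 0.15 (SE 0.05, limma adjusted p = 0.219). Nop16 read 8.19, 8.15, 7.94 and 8.02 log2 in control and 8.32, 8.20, 8.28 and 8.25 in doxorubicin hearts, with a difference of 0.19 (SE 0.07, limma adjusted p = 0.246). The remaining large subunit factors overlapped between groups. Noc2l stood at 0.23 (SE 0.11), with doxorubicin 3 at 6.05 log2 above the other 7 hearts, and Rrp1 at 0.13 (SE 0.07). The RNA helicases Ddx21 and Ddx56 stood at 0.13 and 0.09, and both Ddx21 probe sets gave 0.13. The 28S RNA methyltransferase Nop2 stood at 0.04, and nucleostemin (Gnl3), a GTP-binding protein of the nucleolus, at -0.06 (95% interval -0.20 to 0.08).

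The snoRNP proteins showed differences of both signs. Of 9 members none was called, 4 were positive, and the median was -0.03. Fbl, Nop56 and Nop58 are core proteins of the box C/D snoRNPs, in which fibrillarin (Fbl) is the enzyme that methylates ribosomal RNA. Fbl read 7.39, 7.82, 7.48 and 7.43 log2 in control and 7.96, 7.91, 7.67 and 8.0 in doxorubicin hearts. Control 2 stood apart from the other control hearts and above doxorubicin 3. The difference was 0.35 (SE 0.11, 1.28-fold, limma adjusted p = 0.163). Without control 2 it was 0.45 (SE 0.09) and passed (limma adjusted p = 0.0311), and no other member passed when an array was left out. Within each group, Fbl ranked the hearts as the mean of the atrial marker genes did. That mean was 6.63, 11.02, 10.03 and 7.38 log2 in control and 10.09, 9.36, 7.46 and 12.06 in doxorubicin hearts. Nip7 kept this order in control hearts only, and Rrs1 only for the highest and lowest heart of each group. The order was seen afterwards, and the part of atrial tissue in these differences was not tested.

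Nop58, the paralogue of Nop56 in the same particle, was the member with the lowest difference. It read 7.99, 7.97, 7.82 and 7.90 log2 in control and 7.70, 7.84, 7.56 and 7.81 in doxorubicin hearts, a difference of -0.19 (SE 0.08, limma adjusted p = 0.287), with doxorubicin 2 above control 3. Nop56 stood between these, at 8.19, 8.25, 8.22 and 8.27 log2 in control and 8.19, 8.02, 8.29 and 8.28 in doxorubicin hearts. Its difference was -0.04 (SE 0.07), and its second probe set gave -0.05. Whether the 3 proteins of the particle differed from each other in their response was not tested.

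**Figure D4:**
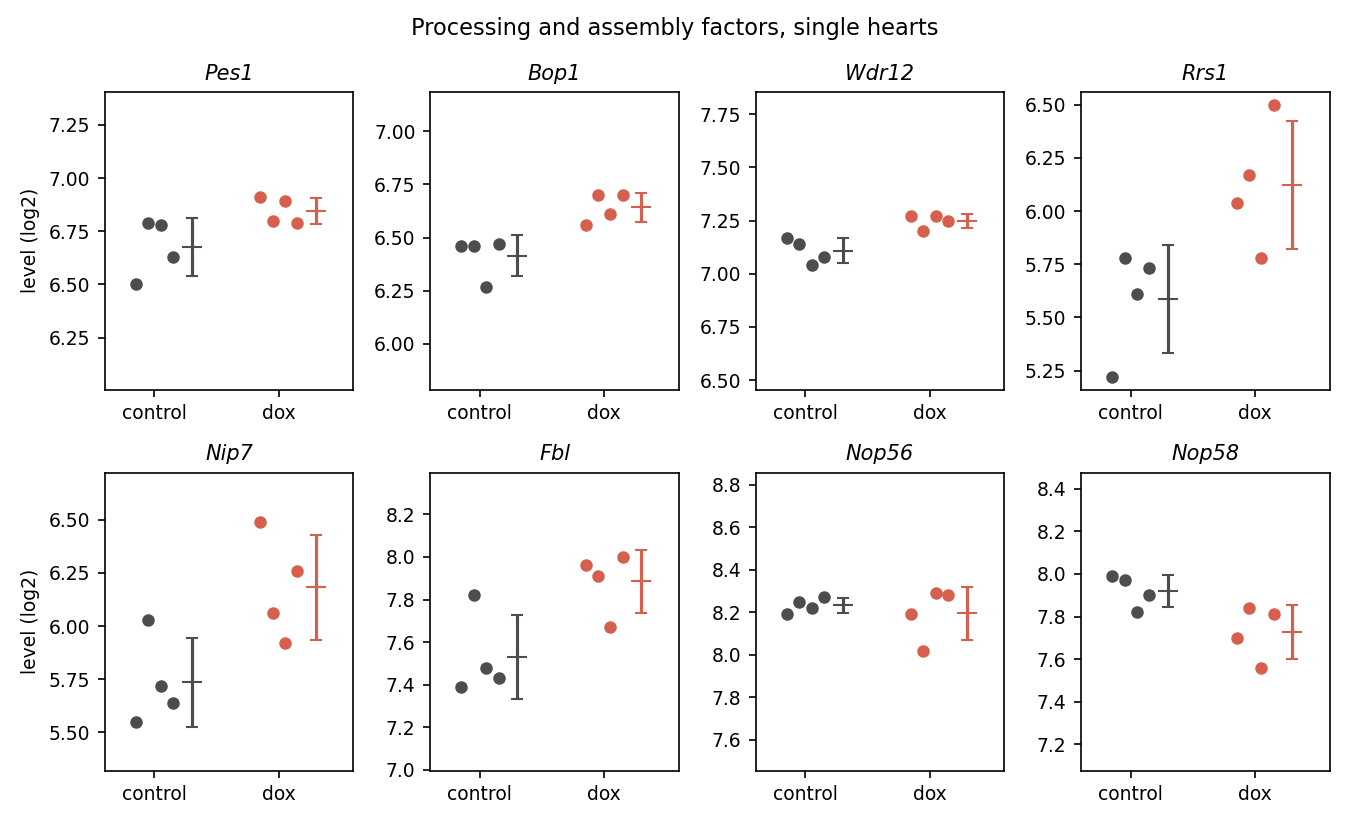
Level (log2) in single hearts of the PeBoW genes Pes1, Bop1 and Wdr12, of Rrs1 and Nip7, and of the box C/D core genes Fbl, Nop56 and Nop58, with control hearts in grey, doxorubicin hearts in red and the mean with SD (n = 4) beside each group; every panel spans 1.4 log2. The PeBoW groups lie close but apart, control 2 sits high for Fbl and Nip7, and the doxorubicin mean lies below the control mean for Nop58 (a difference of -0.19) and Nop56 (-0.04).

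The box H/ACA snoRNPs, which turn uridine into pseudouridine, hold Dkc1, Gar1, Nhp2 and Nop10. Nhp2 read 7.44, 7.42, 7.34 and 7.25 log2 in control and 7.53, 7.51, 7.62 and 7.54 in doxorubicin hearts, without overlap, and its difference was 0.19 (SE 0.06, limma adjusted p = 0.195). The pseudouridine synthase Dkc1 stood at -0.06 (SE 0.08), Gar1 at 0.02 (SE 0.10) and Nop10 at -0.12 (SE 0.12), where control 1 at 10.84 log2 was the highest heart. Nolc1 (Nopp140), a chaperone of snoRNPs, stood at 0.02, while its other probe sets gave 0.19, 0.15 and, for a dim one, -0.12. Rrp9, a protein of the U3 snoRNP, stood at -0.03 (SE 0.12).

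The 5 factors of small subunit assembly lay near 0. None was called or reached an unadjusted p under 0.05, the differences ran from -0.06 to 0.11, and the 5 intervals lay within 1.5-fold. Tsr1, which accompanies the late pre-40S particle, stood at 0.11 (SE 0.06), and Wdr43, of the early small subunit processome, at 0.10 (SE 0.08) with a second probe set at -0.09. Noc4l stood at 0.03, Bysl at -0.02 and Nob1, the nuclease that makes the end of the 18S RNA, at -0.06 (SE 0.09). Nucleolin (Ncl), the abundant nucleolar protein that binds precursor RNA, read 9.91, 10.19, 10.08 and 10.10 log2 in control and 10.20, 10.04, 10.11 and 10.32 in doxorubicin hearts. Its groups overlapped, and the difference was 0.10 (SE 0.08, limma adjusted p = 0.685).

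Other genes of the pathway were not called either. Of 144 further ribosome biogenesis genes, 0 were called in limma. An unadjusted p under 0.05 was reached by 24 upward and by 2 downward, against 9.67% and 7.07% of all genes, 108 were positive (75.0%, against 51.9%), and the median difference was 0.07. The upward count was 15 without control 1, control 3 or control 4. With the hybridization covariate it was 5, with 3 downward. All 4 doxorubicin hearts lay above all 4 control hearts for 7 of the 144 (4.86%, against 5.75% of all genes). They all lay below for 1 (0.694%, against 4.69%). The larger share seen for the members was thus not seen here. The nearest to the threshold was Ddx18, an RNA helicase of large subunit assembly, which read 6.31, 6.24, 6.27 and 6.22 log2 in control and 6.54, 6.46, 6.69 and 6.46 in doxorubicin hearts (0.28, SE 0.07, limma adjusted p = 0.0675). Among 50 genes of the small subunit processome and 40S maturation, 10 were higher and 1 lower unadjusted (9.67% and 7.07% of all genes). Nol11 led these (0.26, limma adjusted p = 0.104). Their median difference was 0.08, and 76.0% were positive. Among 47 further genes of 60S assembly and export, 9 were higher (19.1%) and 1 lower (2.13%) unadjusted. Their median was 0.06, and 74.5% were positive. The higher median of large over small subunit members was thus not repeated in these lists as drawn. Their borders are not exact. The 60S list held Mrm2 (0.08), which acts on mitochondrial ribosomal RNA, and the 40S list Rrp8 (0.22), which acts on large subunit RNA. Without control 2 there were 3 calls among the 144, for Utp25, Ddx52 and Senp3, at 0.31 to 0.45 log2 (limma adjusted p 0.0254 to 0.0496).

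The polymerases' other genes did not pass either. A further 9 polymerase I genes were read, the subunits Polr1f, Polr1g and Polr1h and genes of initiation, termination and regulation. Of the 9, 0 were higher or lower at an unadjusted p under 0.05. The median was 0.00, with Mybbp1a at 0.12 the one with the smallest p. Of 5 subunits common to polymerases I, II and III, 1 was higher unadjusted, Polr2h (0.20, limma adjusted p = 0.352). Polymerase III makes the 5S ribosomal RNA, and 13 genes were read for its subunits and for factors that act on it. These include its repressor Maf1 (0.09). Of the 13, 13 had positive differences (51.9% of all genes did) with a median of 0.09 and 1 was higher unadjusted, Polr3c (0.24, limma adjusted p = 0.166). Of 9 snoRNP assembly genes, Znhit6 (0.34, limma adjusted p = 0.282) had the smallest p, and of 11 genes of the RNA exosome, the nuclease that trims the precursor, Exosc8 (0.23, limma adjusted p = 0.283) did. A control probe set for the 5S ribosomal RNA itself, an RNA without a poly(A) tail, read 4.89, 4.40, 4.37 and 4.65 log2 in control and 4.45, 4.34, 4.24 and 4.48 in doxorubicin arrays. The groups overlapped (-0.20, exact two-sided permutation p = 0.229).

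Myc was lower in the same hearts in which these genes were not called. It read 8.72, 8.66, 8.51 and 8.47 log2 in control and 7.65, 7.79, 7.28 and 7.78 in doxorubicin hearts, with no overlap. Myc fell by 0.97 on the log2 scale (SE 0.12, 1.95-fold lower, limma adjusted p = 0.00213), and the call held without any one of the 8 arrays (largest limma adjusted p = 0.0102) and was lost with the hybridization covariate (-1.01, limma adjusted p = 0.153). Its partner Max stood at 0.16 (SE 0.10). The 8 members with the E-box letters in the promoter window had differences from -0.06 to 0.35 with a median of 0.08, and the 24 without them from -0.19 to 0.45 with a median of 0.09.

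**Figure D5:**
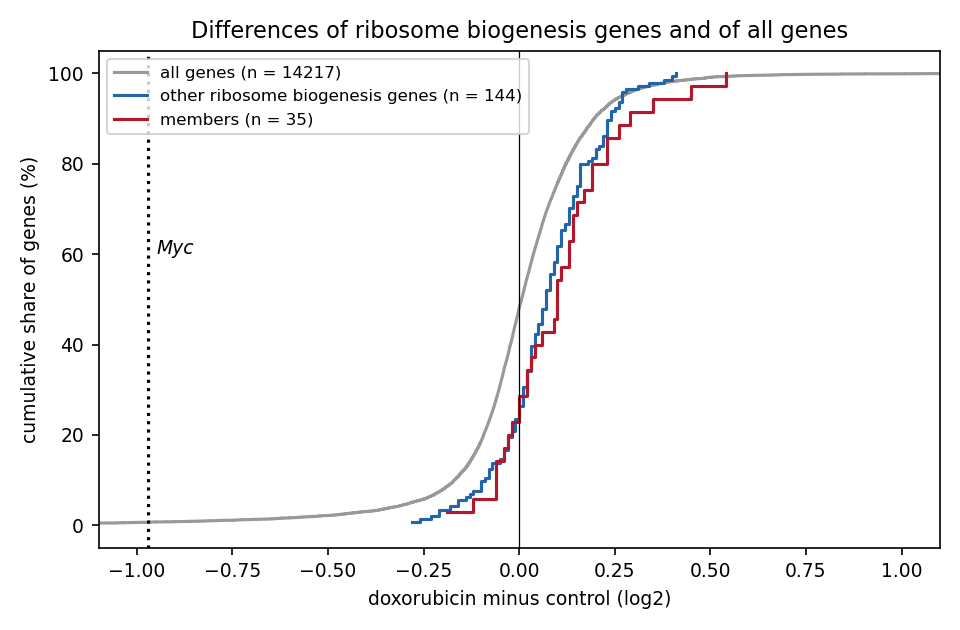
Cumulative share of genes (%) against the difference between doxorubicin and control hearts (log2), for the 35 members, 144 other ribosome biogenesis genes and all 14217 genes, with Myc at -0.97 as a dotted line. Both ribosome biogenesis curves lie to the right of the curve for all genes, with medians of 0.10 and 0.07 against 0.01, and the lowest value of either set is -0.28, for Zfp622.

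The labelled tissue was checked against markers. The 9 genes listed for ventricular muscle had a mean of 13.61 to 13.70 log2 in every heart. Most of them are made in atrial muscle too, so this mean reads heart muscle and not the ventricular share. Atrial markers ranged from 6.63 to 11.02 log2 in control and from 7.46 to 12.06 in doxorubicin hearts, and fat markers from 6.73 to 7.58 and from 6.71 to 8.99. None of the 4 atrial, 6 fat, 6 macrophage, 5 endothelial, 6 fibroblast or 4 smooth muscle markers was called, and 1 of these, the macrophage marker Cd14, was lower unadjusted (-0.53, limma adjusted p = 0.14). The mean of 6 dividing-cell markers, set beside these growth-linked genes, was 5.39 to 5.52 log2 in control and 5.46 to 5.57 in doxorubicin hearts. Of the 6, 1 was higher unadjusted, Pcna (0.23, limma adjusted p = 0.0805). Over all genes 9.67% were higher and 7.07% lower unadjusted. In whole-heart RNA, fewer cells of a type and less RNA per cell cannot be told apart.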

How the data were processed

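Each array value is a probe set intensity on a linear scale that the authors made with RMA, per the submitters' processing notes; neither its version nor its probe set definitions are stated there. RMA sets the arrays to like distributions, which hides any shift common to most genes. Here log2 was taken, 57 control probe sets were left out, and 31042 were fitted with limma 3.58.1 in R 4.3.3 (lmFit and eBayes, 4 doxorubicin against 4 control, no covariate). P-values are two-sided and Benjamini-Hochberg adjusted over all 31042, with calls under 0.05. Means carry SD, differences the SE of the fit. Arrays have no sequencing depth, and their number limits the precision. On data simulated for this comparison over 31042 probe sets, 75 of 100 changed 1.5-fold and 95 of 100 changed 2-fold were recovered, with 10 false calls.

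Symbols came from the platform annotation: 20826 probe sets had 1, 436 several and 9780 none. Every measured member is named; values in all hearts are given for polymerase I members, Ncl, Fbl and processing members with an unadjusted p under 0.05, and Nop56 was added after its values were seen. Of the further lists, called genes or the smallest p are named. Members, lists and tests were chosen with earlier results of these data known, so no list was tested. Alternatives were other normalizations, filters, fits, probe set rules, a covariate, a replicate block and leaving out each array. Same-numbered control and doxorubicin hearts did not deviate together (correlations from -0.184 to 0.059 across probe sets), so they were not paired. Figures used Python 3.11.15 and matplotlib 3.10.9.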

Additional observations from a re-analysis of the deposited data

Results flagged for a closer look

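In 70 sets of 4 hearts (35 members in each group), 2 held a heart whose gap to the nearest of the others took more of the group's range than Dixon's 95% critical value allows; chance alone gives about 1 in 20. Control 3 read 6.27 log2 for Bop1, while the other control hearts read 6.46 to 6.47, and without it the difference of Bop1 was 0.18 (limma adjusted p = 0.277) in place of 0.23. Control 2 read 5.84 log2 for Rrp9, against 6.23 to 6.30 in the other control hearts, and without it the difference of Rrp9 was -0.14 (limma adjusted p = 0.549) in place of -0.03.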

How the results depend on the processing

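Over 19 alternatives and 35 members, 665 differences were recomputed. Of these, 647 moved by less than the SD between hearts, 17 by more, and 1 became a call, Fbl without control 2. Most of the 647 had no room to move by more. The trended and robust variance fits, the replicate block and the removal of dim probe sets left every difference unchanged. So did updated symbols and adjustment over 1 probe set per gene. Dropping 1 of 4 hearts cannot shift a group mean by as much as that SD. The count of 647 therefore says little about how stable the differences are. Of the 17, 16 came with the hybridization covariate and 1, Ubtf, with the mean of its probe sets. Leaving out each array in turn gave 0 to 1 members called, 0 to 3 of the 144 other ribosome biogenesis genes, a polymerase I median of 0.05 (without control 3) to 0.11 and 248 to 512 genes called of 14217. The 512 came without control 2, and 267, 248, 278 and 262 without control 3 and doxorubicin 1, 2 and 3. With the hybridization covariate 60 genes were called, the polymerase I median was 0.01, the processing median 0.09 and 1 member was higher at an unadjusted p under 0.05; the cause was not tested. With median centring 1 of the other ribosome biogenesis genes was called, Ddx18. With the replicate block 0 members and 305 genes were called. The count of members higher at an unadjusted p was added after seeing the data.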
